A study of Glycine max with 6 samples.

Results

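The genes described here are soybean genes that rose under drought beside another rising gene. They were 144 of the 66195 probes on the array, and they formed 83 pairs on the 20 chromosomes. Leaves of drought-stressed plants were set against leaves of well-watered plants, 3 plants in each group and 1 array per plant. All plants were soybean, cultivar Williams 82, at the vegetative stage called V6, and the fourth trifoliate leaf was taken from each. The drought-stressed plants (plants 1, 2 and 4) had been without water for 6 days, until soil moisture had dropped to 5%, while the well-watered plants (plants 14, 15 and 16) were watered throughout. The sources disagree on plant age, with 28 days at the start of the treatment in the treatment protocol and 35 days for the V6 stage in the growth protocol. Plants grew 3 to a pot, and the sources used here do not say which of them shared one, so the standard errors measure the spread between these plants.

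A probe was in range when its mean log2 value was higher by 2 to under 5 (a 4-fold to 32-fold rise) in drought-stressed than in well-watered leaves, with every drought-stressed plant above every well-watered one. It became a member when another in-range probe lay on the same chromosome with a gene ID number 10 to 30 away. Gene IDs of the Glyma1 annotation run along each chromosome in steps that are mostly of 10, so a difference of 10 usually means the next annotated gene. Members were thus chosen by the measured drought response of these same plants, so their differences are given as a description with no test. All 839 in-range probes made up 1.27% of the array, and 144 (17.2%) of them had such a neighbour. The other 695 did not.

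In plant genomes, neighbouring genes can be tandem copies left by local duplication, and they can also share stretches of chromatin or regulatory sequence, so that unrelated neighbours are sometimes transcribed together. Leaves that lose water accumulate the hormone abscisic acid (ABA), and transcription factors of families such as NAC and ERF then change the output of many genes scattered over the genome. The probe and gene sequences were not used here, so it was not examined whether partners are copies of one another or share probe sequence. In bulk leaf RNA, a change in the share of a cell type and a change of RNA per cell cannot be told apart.

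The deposited values were log2 signals that the authors had shifted array by array to a common 75th percentile and centred on the median of the 6 arrays for each probe, so they hold differences between plants but no level of a gene. Leaf markers could therefore not be checked. Array medians lay between -0.029 and -0.0042 in the drought-stressed plants and between -0.097 and 0.13 in the well-watered plants. Over the whole array, 4.33% of probes were higher in drought-stressed leaves and 5.14% were lower in limma (2-fold or more, adjusted p below 0.05). All 144 members were among the higher probes, as the choice of members made likely. The drought-stressed plants all lay above the well-watered plants in 14.4% of all probes. No 2 members had identical values on the 6 arrays or carried the same gene ID.

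Rising genes were paired most often at the smallest ID difference, that of the next annotated gene. At an ID difference of exactly 10, 46 of 62660 probe pairs (0.0734%) were both in range, against 21 of 61817 (0.0340%) at 20 and 16 of 61249 (0.0261%) at 30. At each difference from 40 to 200 the share lay between 0.0103% and 0.0349%. Only the share at 10 stood above this span, and those at 20 and 30 lay within it. Over the whole window of 10 to 30, 83 of 185726 pairs (0.0447%) were both rising. With this window moved outwards by 30, 60, 100 and 500 IDs the share was 0.0188%, 0.0287%, 0.0149% and 0.0147%. Moved by 1000, 5000 and 10000 IDs it gave 0.0170%, 0.0143% and 0.0112%. These counts share the same 836 in-range probes on chromosomes and were not given a test.

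**Figure D1:**
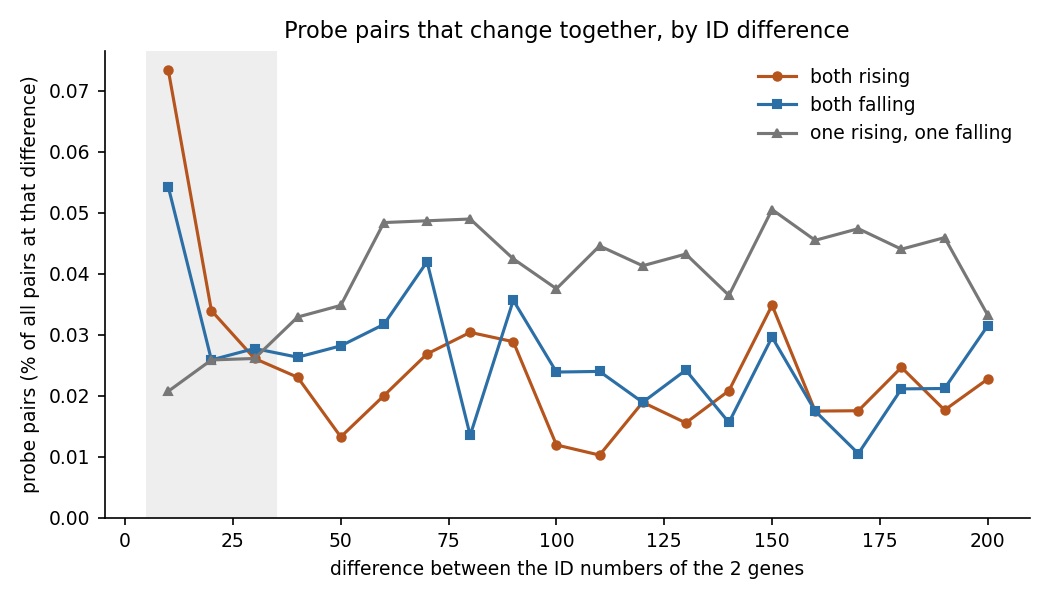
Share of all probe pairs of a chromosome (y axis, %) that were both rising, both falling or one of each, by the difference between their ID numbers from 10 to 200 (x axis); grey marks the window of 10 to 30. Pairs that were both rising made up 0.0734% at a difference of 10 and 0.0103% to 0.0349% at 40 to 200.

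Falling genes were also paired most often at an ID difference of 10, but by a smaller margin. With the limits mirrored, 911 probes (1.38%) were in the falling range, and 112 of them formed 67 pairs within the window, 0.0361% of all probe pairs there. At a difference of 10, 34 pairs (0.0543%) were both falling, against shares between 0.0105% and 0.0420% at 40 to 200. Pairs of a rising and a falling probe showed the opposite pattern, with 0.0207% at a difference of 10 and between 0.0329% and 0.0505% at 40 to 200. Over all probes on chromosomes, the log2 differences of 2 probes correlated with r = 0.104 at an ID difference of 10, 0.050 at 20, 0.028 at 30, 0.0078 at 50 and 0.0011 at 100, a description across genes that share the same 6 arrays.

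How often a probe had a rising neighbour went with its own response. Such a neighbour, 10 to 30 away, stood beside 22 of 70 probes (31.4%) that rose by 5 or more on the log2 scale. It stood beside 17.2% of in-range probes and beside 224 of 1951 (11.5%) that were called higher with a rise of 1 to under 2. Probes in the falling range had a rising neighbour in 44 of 908 cases (4.85%), and probes called in neither direction in 6.56%. All probes together had one in 6.81%.

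The probe set numbers of the array put the genes of each chromosome into 2 blocks, within which the numbers follow the gene order. In 19 of the 20 chromosomes no other step back was found, and in chromosome 15 there was 1. What the blocks stand for is not given in the sources used here. Of all probe pairs 10 to 30 apart, 51.5% fell in the same block, while 57 of the 83 rising pairs (68.7%) did. Within a block 0.0596% of probe pairs were both rising, against 0.0289% across blocks. The contrast was of similar size among pairs that were next to each other, where 33 pairs (0.102%) shared a block and 13 (0.0429%) did not. With the window moved outwards by 1000 IDs, 17 rising pairs (0.0206%) shared a block and 11 (0.0134%) did not. There, 60.7% of rising pairs and 50.1% of all probe pairs shared a block, which leaned the same way. These counts are too small to read the size of a contrast from, and no contrast between blocks was tested.

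Members were found on every chromosome. Chromosome 13 held the most, 16 of its 64 in-range probes, and chromosome 4 had the highest share, with 12 of 37 (32.4%). On chromosome 8 only 2 of 62 (3.23%) were members, and chromosomes 2, 9, 10 and 17 likewise held 1 pair each. Most members stood in simple pairs: 61 runs had 2 genes, 6 had 3 and 1 had 4.

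The members rose by a median of 2.71 on the log2 scale, with a span of 2.00 to 4.79, and the in-range probes without a rising neighbour rose by a median of 2.66. Standard errors, from the limma fit to all probes, lay between 0.16 and 0.80 with a median of 0.23, against 0.19 over all probes. Because each probe was centred on its median over 6 arrays, the lowest drought-stressed and the highest well-watered value of a member are equal in size and opposite in sign. Partners were not always equal. Their log2 differences lay within 0.5 of each other in 41 of the 83 pairs and over 1 apart in 17, with a median distance of 0.51. In 31 pairs the partners were more than 2 standard errors apart, with the standard errors of the 2 genes combined as if independent. Partners were measured on the same plants and often varied together, so this count is only a rough description. The limits of 2 and 5 also bound the distances between partners, and distances between other in-range probes were not set beside them.

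**Figure D2:**
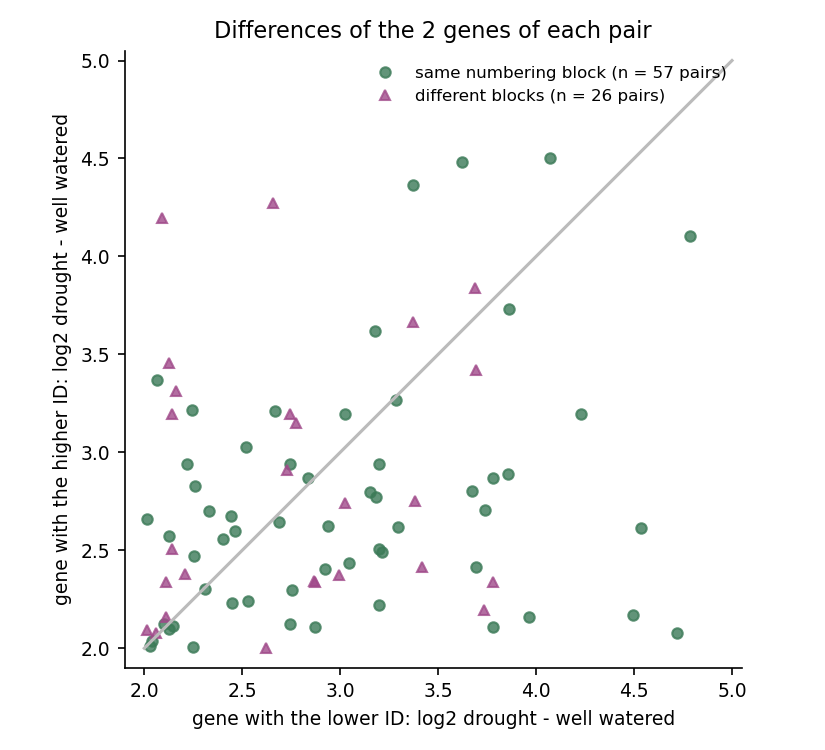
Log2 difference between drought-stressed and well-watered leaves for the gene with the lower ID (x axis) and the gene with the higher ID (y axis) of each of the 83 pairs, by whether their probe sets share a numbering block (57 pairs) or not (26 pairs); the line marks equal differences. Points run from 2 to under 5 on both axes because the rule for members set these limits, and 41 pairs lie within 0.5 of the line.

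The only run of 4 lay on chromosome 12, where each gene was followed by the next ID. Glyma12g13290 had log2 values of 1.39, 1.73 and 2.71 in drought-stressed plants 1, 2 and 4, against -1.39, -1.90 and -2.22 in well-watered plants 14, 15 and 16, a difference of 3.78 (SE 0.33). Glyma12g13300 stood at 0.98, 1.85 and 2.22 in the drought-stressed plants, against -0.98, -1.13 and -1.45 in the well-watered plants, and differed by 2.87 (SE 0.29). These first genes of the run were highest in plant 4 and lowest in plant 1 among the drought-stressed plants. Glyma12g13310 had log2 values of 0.91, 1.12 and 1.07 in drought-stressed plants 1, 2 and 4, against -0.91, -1.14 and -1.19 in well-watered plants 14, 15 and 16, a difference of 2.11 (SE 0.17). The plants of Glyma12g13320 were at 1.01, 1.17 and 1.19 under drought, against -1.01, -1.39 and -1.25 when well watered, a difference of 2.34 (SE 0.17). The rise at the far end of the run was smaller, and its plants lay closer together. The best *Arabidopsis* match listed for Glyma12g13320 is a very weak one to ERF9, a transcription repressor of the ERF family, while the other genes were not in the rows of the annotation tables used here. The probes next to the run, Glyma12g13280 and Glyma12g13330, differed by -0.30 and -0.13, while Glyma12g13270, 20 IDs before the run, rose by 1.02 and was called higher by limma (all 3 named after their values were seen).

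The run with the highest mean rise, 3.27, was on chromosome 18. Glyma18g00800 had log2 values of 1.53, 1.03 and 2.53 in drought-stressed plants 1, 2 and 4, against -1.03, -1.97 and -2.03 in well-watered plants 14, 15 and 16, a difference of 3.37 (SE 0.38). In Glyma18g00810, the drought-stressed plants had log2 values of 1.92, 1.81 and 3.33, against -1.81, -2.26 and -1.96 in the well-watered plants, with a difference of 4.36 (SE 0.35). Both were highest in plant 4 by a clear margin. Glyma18g00770 had log2 values of 1.03, 1.39 and 0.89 in drought-stressed plants 1, 2 and 4, against -1.04, -0.94 and -0.89 in well-watered plants 14, 15 and 16, a difference of 2.06 (SE 0.18). In this gene plant 4 was instead the lowest drought-stressed plant. The probes that separate it from the others, Glyma18g00780 and Glyma18g00790, differed by 0.0017 and -0.056. Past the end of the run Glyma18g00820 and Glyma18g00830 had differences of 1.10 (SE 0.62) and 1.88 (SE 0.75), and neither was called (all 4 named after their values were seen).

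On chromosome 11, Glyma11g21610, Glyma11g21620 and Glyma11g21640 rose, and a probe among them was not called. Glyma11g21610 had log2 values of 1.78, 1.93 and 1.77 in drought-stressed plants 1, 2 and 4, against -2.02, -1.77 and -1.81 in well-watered plants 14, 15 and 16, a difference of 3.69 (SE 0.16). Glyma11g21620, its partner, had 1.72, 2.38 and 1.39 in the drought-stressed plants, against -1.62, -1.39 and -1.76 in the well-watered plants, and rose by 3.42 (SE 0.25). Glyma11g21640 differed by 2.41 (SE 0.30), with 0.85, 1.38 and 0.88 in the drought-stressed plants, against -2.08, -0.85 and -1.20 in the well-watered plants. Plant 2 was the highest drought-stressed plant in all 3 genes. Glyma11g21630, between them, differed by -0.14, and 30 IDs past the end of the run Glyma11g21670 differed by -2.80, a lower value in drought-stressed leaves (both named after their values were seen).

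The run on chromosome 15 was the most even, with 3 consecutive IDs and differences within 0.45 of each other. Glyma15g06240 had log2 values of 0.95, 1.66 and 2.03 in drought-stressed plants 1, 2 and 4, against -2.44, -0.95 and -1.03 in well-watered plants 14, 15 and 16, a difference of 3.02 (SE 0.40). For Glyma15g06250 the values were 1.0, 1.35 and 1.61 in the drought-stressed plants, against -2.04, -1.0 and -1.25 in the well-watered plants, with a difference of 2.74 (SE 0.27). Glyma15g06260 differed by 3.19 (SE 0.41), with 1.01, 1.64 and 1.90 in the drought-stressed plants, against -2.73, -1.28 and -1.01 in the well-watered plants. Their plants ran in one order, with plant 4 above plant 2 above plant 1 in the drought-stressed group and plant 14 lowest in the well-watered group. No probe from 60 IDs before to 60 IDs after this run was called higher.

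The run on chromosome 5 was spread over 60 IDs in steps of 30. Glyma05g33280 had log2 values of 0.79, 1.13 and 1.32 in drought-stressed plants 1, 2 and 4, against -1.01, -0.79 and -0.98 in well-watered plants 14, 15 and 16, a difference of 2.01 (SE 0.18). Glyma05g33310 stood at 1.21, 1.35 and 1.40 in the drought-stressed plants, against -1.37, -1.21 and -1.44 in the well-watered plants, and differed by 2.66 (SE 0.16). Glyma05g33340 differed by 4.27 (SE 0.26), with 1.82, 2.15 and 2.37 in the drought-stressed plants, against -1.82, -1.93 and -2.73 in the well-watered plants. Each gene kept plants 1, 2 and 4 in the same order, from lowest to highest. The 4 probes lying between these genes differed by -0.050 to 0.30, so the rise was not continuous along the IDs. Beyond the run, Glyma05g33380 rose by 1.09 and was called higher by limma (named after its value was seen).

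Chromosome 20 held a run with a weaker riser inside it. Glyma20g23620 had log2 values of 1.32, 1.34 and 2.27 in drought-stressed plants 1, 2 and 4, against -1.98, -1.32 and -1.34 in well-watered plants 14, 15 and 16, a difference of 3.20 (SE 0.28). The plants of Glyma20g23640 were at 0.82, 0.88 and 1.75 under drought, against -1.15, -0.82 and -1.23 when well watered, a difference of 2.22 (SE 0.25). Glyma20g23650 differed by 2.94 (SE 0.30), with 1.13, 1.31 and 1.85 in the drought-stressed plants, against -2.19, -1.13 and -1.21 in the well-watered plants. All were highest in plant 4. Between the first and the next of them, Glyma20g23630 rose by 1.33 (SE 0.25, called higher by limma), below the lower limit, while Glyma20g23660 just after the run differed by -1.11 (both named after their values were seen).

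The last run, on chromosome 3, again had consecutive IDs. Glyma03g41580 had log2 values of 0.62, 0.72 and 1.84 in drought-stressed plants 1, 2 and 4, against -0.62, -1.01 and -1.61 in well-watered plants 14, 15 and 16, a difference of 2.14 (SE 0.34). In Glyma03g41590, the drought-stressed plants had log2 values of 1.44, 1.51 and 1.94, against -1.59, -1.68 and -1.44 in the well-watered plants, with a difference of 3.20 (SE 0.19). Glyma03g41600 differed by 2.51 (SE 0.23), with 0.90, 1.15 and 1.5 in the drought-stressed plants, against -1.53, -0.90 and -1.55 in the well-watered plants. The middle gene had the narrowest spread between plants. The probes next to the run, Glyma03g41570 and Glyma03g41610, differed by 0.29 and 0.12 (both named after their values were seen).

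**Figure D3:**
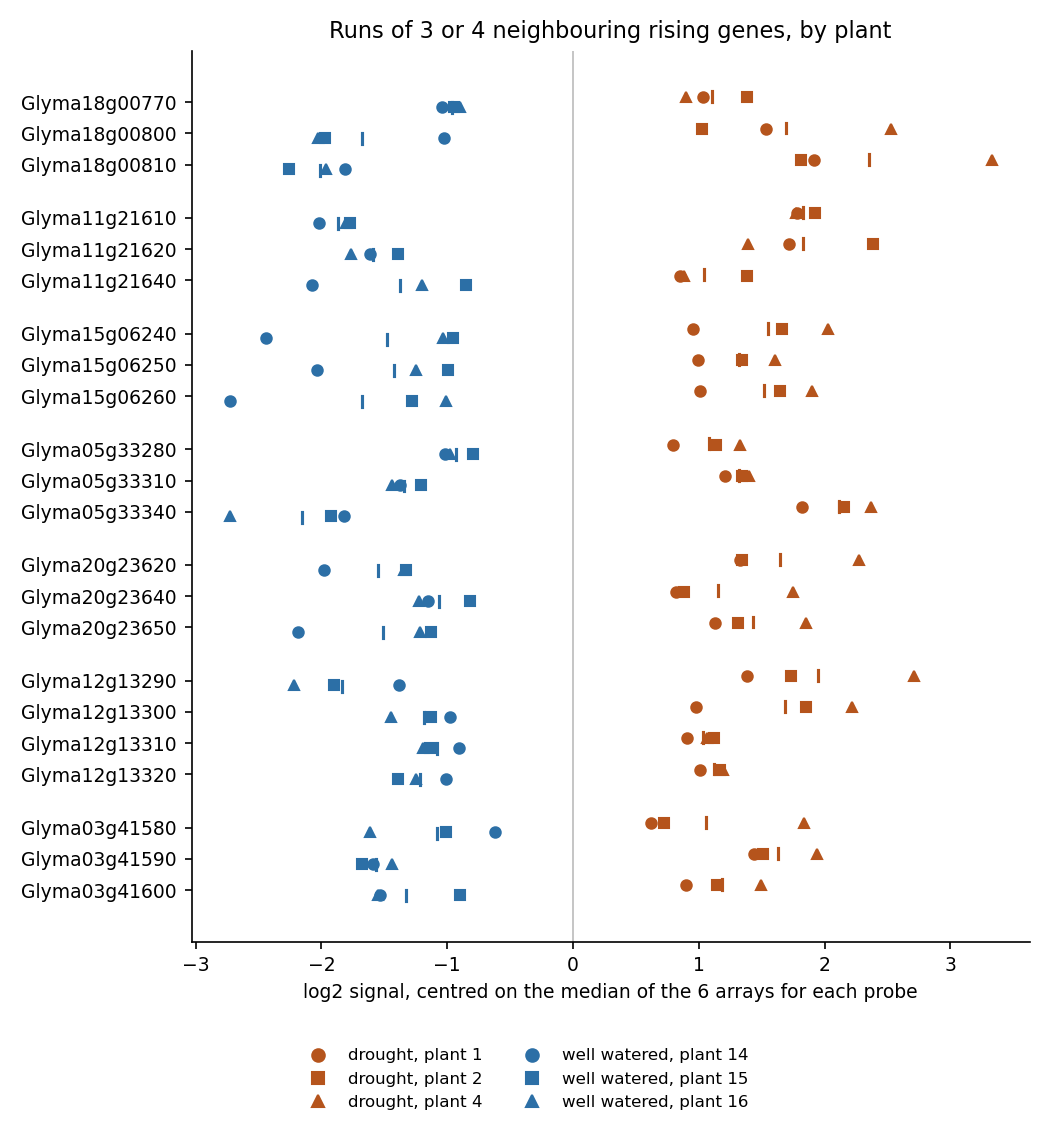
Log2 values of each plant (x axis, centred on the median of the 6 arrays for each probe) for the 22 genes in runs of 3 or 4 (y axis, in ID order within a run), drought-stressed plants above well-watered plants in each row; short vertical lines are group means. In every row all drought-stressed plants lie above all well-watered plants, which the rule for members required.

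**Figure D4:**
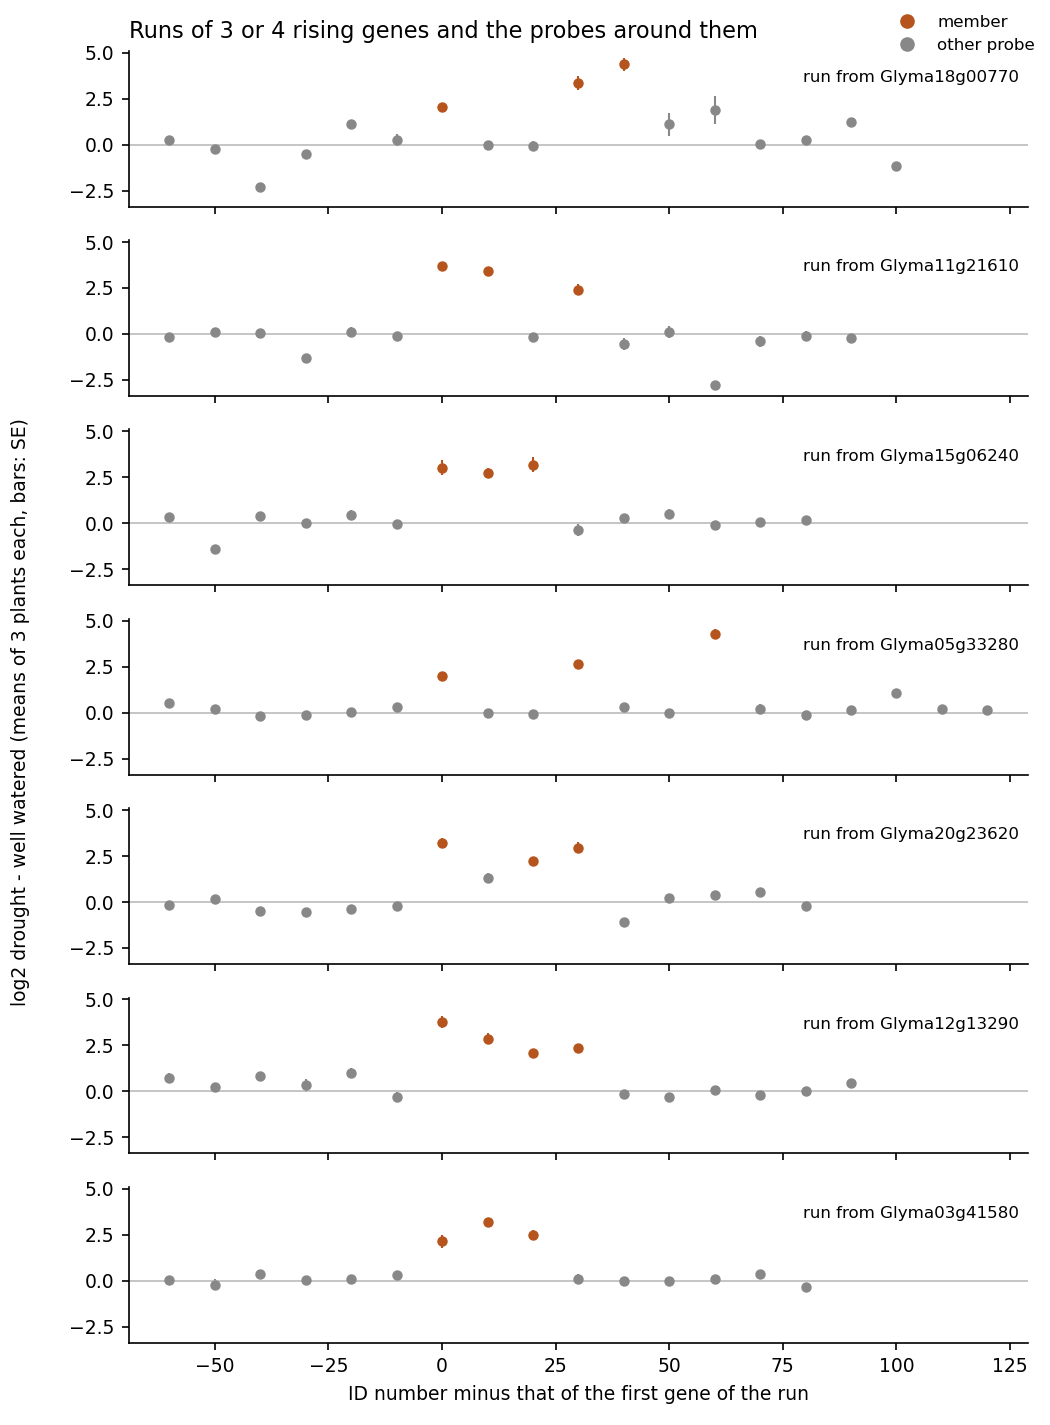
Log2 difference between drought-stressed and well-watered leaves (y axis, means of 3 plants each, bars are standard errors) for the 7 runs of 3 or 4 genes and the probes up to 60 IDs around them, by ID number relative to the first gene of the run (x axis). Members lie between 2.01 and 4.36, and most probes around and between them lie near 0.

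Outside these runs, the pair with the highest mean rise, 4.45, was on chromosome 19. Glyma19g40550 had log2 values of 2.47, 2.24 and 2.42 in drought-stressed plants 1, 2 and 4, against -2.41, -2.58 and -2.24 in well-watered plants 14, 15 and 16, a difference of 4.79 (SE 0.17). Glyma19g40560, its partner, had 1.80, 1.98 and 2.10 in the drought-stressed plants, against -1.80, -1.99 and -2.64 in the well-watered plants, and rose by 4.11 (SE 0.23). Plant 1 was the highest drought-stressed plant in the first gene and the lowest in the second. On chromosome 13 a pair was separated by Glyma13g25610, which differed by 0.054 (named after its value was seen). Glyma13g25600 had log2 values of 1.96, 1.80 and 2.25 in drought-stressed plants 1, 2 and 4, against -2.35, -2.05 and -1.80 in well-watered plants 14, 15 and 16, a difference of 4.07 (SE 0.20). For Glyma13g25620 the values were 2.12, 1.92 and 2.44 in the drought-stressed plants, against -3.09, -2.0 and -1.92 in the well-watered plants, with a difference of 4.50 (SE 0.30). Here both genes had plant 4 highest and plant 2 lowest in the drought-stressed group.

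Chromosome 18 carried both of the next pairs. Glyma18g40690 had log2 values of 1.86, 1.93 and 1.60 in drought-stressed plants 1, 2 and 4, against -1.60, -1.84 and -2.04 in well-watered plants 14, 15 and 16, a difference of 3.62 (SE 0.18). Glyma18g40700 stood at 1.98, 2.14 and 1.97 in the drought-stressed plants, against -1.97, -3.03 and -2.36 in the well-watered plants, and differed by 4.48 (SE 0.25). In these genes the well-watered plants spread more in the second gene, and the highest drought-stressed plant was plant 2 in both. Glyma18g50840 had log2 values of 2.11, 1.99 and 1.78 in drought-stressed plants 1, 2 and 4, against -1.78, -2.03 and -1.89 in well-watered plants 14, 15 and 16, a difference of 3.86 (SE 0.17). The plants of Glyma18g50860 were at 1.70, 1.75 and 2.06 under drought, against -1.70, -1.93 and -2.07 when well watered, a difference of 3.73 (SE 0.18). The rises of this pair differed by 0.13, less than the standard error of either. The gene after it, Glyma18g50870, rose by 5.16, above the upper limit (named after its value was seen).

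In the last pairs of this group of 6, single plants stood apart. Glyma12g16250 had log2 values of 1.23, 1.68 and 1.71 in drought-stressed plants 1, 2 and 4, against -1.26, -3.94 and -1.23 in well-watered plants 14, 15 and 16, a difference of 3.69 (SE 0.60). In Glyma12g16270, the drought-stressed plants had log2 values of 1.92, 1.70 and 2.53, against -1.70, -1.87 and -1.79 in the well-watered plants, with a difference of 3.84 (SE 0.22). The difference of the first gene was widened by well-watered plant 15, which lay more than 2 log2 units below the other well-watered plants, and without it was 2.79. Glyma11g18560 had log2 values of 2.08, 1.83 and 2.79 in drought-stressed plants 1, 2 and 4, against -1.83, -1.91 and -2.23 in well-watered plants 14, 15 and 16, a difference of 4.23 (SE 0.25). Glyma11g18570, its partner, had 1.16, 0.73 and 4.61 in the drought-stressed plants, against -0.73, -1.09 and -1.27 in the well-watered plants, and rose by 3.20 (SE 0.80). In Glyma11g18570 drought-stressed plant 4 stood far above plants 1 and 2, and its standard error was the highest of all members. Without plant 4 its difference was 1.97, below the lower limit.

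In other pairs one gene rose far more than its partner. Glyma07g08080 had log2 values of 1.58, 2.64 and 2.97 in drought-stressed plants 1, 2 and 4, against -1.58, -2.07 and -3.32 in well-watered plants 14, 15 and 16, a difference of 4.72 (SE 0.45). For Glyma07g08090 the values were 0.74, 1.16 and 1.58 in the drought-stressed plants, against -1.15, -0.74 and -0.87 in the well-watered plants, with a difference of 2.08 (SE 0.23). These partners differed by 2.64, the widest gap of all 83 pairs. Glyma06g02520 had log2 values of 2.09, 2.33 and 2.16 in drought-stressed plants 1, 2 and 4, against -2.09, -2.33 and -2.47 in well-watered plants 14, 15 and 16, a difference of 4.49 (SE 0.17). Glyma06g02530 stood at 0.87, 1.27 and 1.17 in the drought-stressed plants, against -1.05, -0.87 and -1.28 in the well-watered plants, and differed by 2.17 (SE 0.18). On chromosome 6 every plant of the first gene was further from 0 than any plant of the second. Glyma14g00730 had log2 values of 1.08, 0.77 and 1.39 in drought-stressed plants 1, 2 and 4, against -1.26, -0.77 and -1.01 in well-watered plants 14, 15 and 16, a difference of 2.09 (SE 0.21). The plants of Glyma14g00750 were at 1.40, 1.5 and 2.18 under drought, against -1.90, -1.40 and -4.21 when well watered, a difference of 4.2 (SE 0.59). In Glyma14g00750 well-watered plant 16 lay far below the others, and without it the difference was 3.34. Glyma02g16710 had log2 values of 1.61, 2.76 and 3.31 in drought-stressed plants 1, 2 and 4, against -1.61, -1.87 and -2.44 in well-watered plants 14, 15 and 16, a difference of 4.53 (SE 0.39). In Glyma02g16740, the drought-stressed plants had log2 values of 1.06, 1.24 and 1.73, against -1.06, -1.25 and -1.48 in the well-watered plants, with a difference of 2.61 (SE 0.21). The probe set between the genes on chromosome 14, Glyma14g00740, rose by 1.01 and was called higher by limma (named after its value was seen).

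Few members could be given a role. The annotation tables were used here only in part. Of the 144, 9 appeared in the rows used and 8 of these had a name or an *Arabidopsis* match, so the function of most members is not described here. Glyma11g05960 matches *Arabidopsis* ABA1, the zeaxanthin epoxidase that acts early in the synthesis of ABA. Glyma11g05960 had log2 values of 0.98, 1.02 and 1.08 in drought-stressed plants 1, 2 and 4, against -1.04, -0.98 and -1.24 in well-watered plants 14, 15 and 16, a difference of 2.11 (SE 0.16). Glyma11g05930, its partner, had 0.95, 1.05 and 1.20 in the drought-stressed plants, against -1.26, -1.04 and -0.95 in the well-watered plants, and rose by 2.15 (SE 0.17). Both genes had narrow spreads and rises just above the lower limit.

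Glyma09g35950 is *GmCKX12*, of the cytokinin oxidase/dehydrogenase family, whose enzymes break down the growth hormone cytokinin. Glyma09g35950 had log2 values of 1.71, 0.88 and 1.28 in drought-stressed plants 1, 2 and 4, against -1.07, -2.31 and -0.88 in well-watered plants 14, 15 and 16, a difference of 2.71 (SE 0.36). For Glyma09g35920 the values were 1.58, 1.63 and 1.48 in the drought-stressed plants, against -2.29, -2.76 and -1.48 in the well-watered plants, with a difference of 3.74 (SE 0.28). Well-watered plant 15 was the lowest in both genes. Glyma16g04720 is *GmNAC123*, of the plant-specific NAC transcription factors. Glyma16g04720 had log2 values of 1.05, 1.12 and 1.22 in drought-stressed plants 1, 2 and 4, against -1.66, -1.05 and -1.30 in well-watered plants 14, 15 and 16, a difference of 2.47 (SE 0.19). Glyma16g04700 stood at 0.68, 1.12 and 1.67 in the drought-stressed plants, against -0.89, -0.68 and -1.72 in the well-watered plants, and differed by 2.25 (SE 0.31). The plants of each group lay closer together in *GmNAC123* than in its partner.

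Glyma01g02330 matches *Arabidopsis* PCK1, phosphoenolpyruvate carboxykinase, an enzyme of gluconeogenesis. Glyma01g02330 had log2 values of 0.47, 1.27 and 2.62 in drought-stressed plants 1, 2 and 4, against -0.47, -0.95 and -0.60 in well-watered plants 14, 15 and 16, a difference of 2.13 (SE 0.44). The plants of Glyma01g02320 were at 0.89, 1.0 and 1.14 under drought, against -1.37, -0.89 and -1.01 when well watered, a difference of 2.10 (SE 0.18). In the PCK1 match drought-stressed plant 4 lay far above plant 1. Without plant 4 its difference was 1.54, below the lower limit and the lowest value of any member when 1 plant was left out. Chromosome 1 held a further 2 pairs with a described gene. Glyma01g35580 is matched to AT5G45310, with no function given. Glyma01g35580 had log2 values of 0.97, 1.23 and 1.11 in drought-stressed plants 1, 2 and 4, against -1.33, -0.97 and -2.18 in well-watered plants 14, 15 and 16, a difference of 2.60 (SE 0.28). In Glyma01g35570, the drought-stressed plants had log2 values of 1.12, 1.16 and 1.49, against -1.38, -1.12 and -1.12 in the well-watered plants, with a difference of 2.46 (SE 0.18). Both rises lay just below the median of the members.

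Glyma01g38530 is matched to AT4G36850, a membrane protein of the PQ-loop family, and Glyma01g38500 to AT2G23790, of unknown function in the tables. Glyma01g38530 had log2 values of 0.60, 1.49 and 1.52 in drought-stressed plants 1, 2 and 4, against -0.60, -0.89 and -1.19 in well-watered plants 14, 15 and 16, a difference of 2.09 (SE 0.27). Glyma01g38500, its partner, had 0.79, 1.09 and 0.86 in the drought-stressed plants, against -1.32, -0.79 and -1.19 in the well-watered plants, and rose by 2.01 (SE 0.19). The entry of Glyma01g38500 also names the *Arabidopsis* locus AT4G36820 as similar, and a relation of that locus to AT4G36850 was not tested. The probes between this soybean pair, Glyma01g38510 and Glyma01g38520, differed by 0.034 and -0.45 (both named after their values were seen).

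The limits cut through a continuous range of responses. Just above the lower limit stood Glyma18g49360, Glyma16g01640 and Glyma01g38500, with rises of 2.00, 2.00 and 2.01. Just below it, beside an in-range probe, were Glyma13g32740 (1.97), Glyma15g40790 (1.97) and Glyma02g38190 (1.96). At the upper end Glyma19g40550 (4.79), Glyma07g08080 (4.72) and Glyma02g16710 (4.53) were the members with the largest rises. Glyma07g16830 (5.02), Glyma13g29370 (5.04) and Glyma13g01570 (5.15) lay just past the limit beside an in-range probe. The narrowest gap between the lowest drought-stressed and the highest well-watered plant among members was 0.85, in Glyma11g09670, followed by 0.94 in Glyma01g02330 and 1.14 in Glyma15g00700. Glyma11g20010, with a difference of 2.17, was left out because drought-stressed plant 1 (-0.050) lay below well-watered plant 15 (0.050). Its difference was 0.86 without well-watered plant 16.

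Most genes around the pairs were not called higher. The share called higher was above the array's between partners, beside the runs and, by a small margin, farther away. Farther away the share called lower was also above the array's. These counts were small and were not tested. Between partners that were 20 or 30 apart stood 42 genes that were not members, with a median difference of 0.032. Of these, 4 (9.52%) were called higher by limma, namely Glyma06g45080 (1.86), Glyma19g03030 (1.49), Glyma20g23630 (1.33) and Glyma14g00740 (1.01). Both limma and the methods' t-test called 0 lower, and 2 were lower at an unadjusted p under 0.05 in limma. Probes in range were left out of all these counts within the window, since they were members. Directly beside the runs, 10 of 135 probes (7.41%) were called higher and 7 (5.19%) lower. From 40 to 60 IDs away from any member, 20 of 388 probes (5.15%) were called higher and 30 (7.73%) lower. From 70 to 90 IDs away 35 of 603 (5.80%) were higher and 46 (7.63%) lower. Over the array these shares were 4.33% and 5.14%, and without the 839 in-range probes they were 3.10% and 5.20%. The shares without in-range probes apply to the counts within the window only. The probes at 40 to 60 and 70 to 90 IDs still held 5 and 9 in-range probes.

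Partners also varied together between plants of one group. The rule for members set no limit on this measure but used the same values of these plants, so the measure is not independent of the choice. The distant in-range probes set beside the members passed the same limits on difference and overlap. The mean of each group was taken off each gene, and the remaining 6 values were correlated between partners. The median r was 0.56 over the 83 pairs, and r was above 0 in 68 of them (81.9%). Among 17959 pairs of in-range probes more than 30 IDs apart on one chromosome, the median r was 0.17 and 59.7% were above 0. All 185726 neighbouring probe pairs had a median of 0.14, and the 67 falling pairs had one of 0.40. Each r rests on 6 plants with 4 degrees of freedom, the arrays are shared by all pairs, and pairs within a run share genes, so no p is given. After quantile normalization the medians were 0.35 for member pairs and 0.016 for the distant in-range pairs. With arrays centred on their medians they were 0.51 and 0.18.

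**Figure D5:**
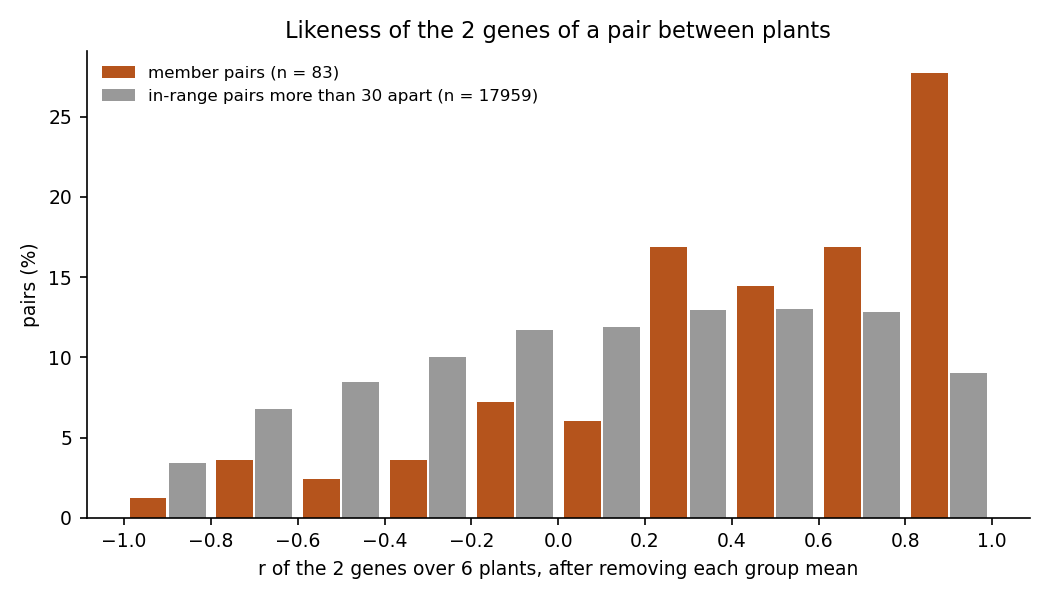
Distribution of r between the 2 genes of a pair over the 6 plants after removing each group mean (x axis, in bins of 0.2) as the share of pairs (y axis, %), for the 83 member pairs and for 17959 pairs of in-range probes more than 30 IDs apart on one chromosome. Values from 0.8 to 1 were held by 27.7% of member pairs and by 9.03% of the distant pairs.

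The likeness differed little with distance inside the window, with medians of 0.58, 0.49 and 0.54 at ID differences of 10, 20 and 30. Pairs inside runs of 3 or 4 genes had a median of 0.73 (22 pairs), and other pairs one of 0.39 (61 pairs). Partners in the same numbering block had a median of 0.46 and those in different blocks 0.56. On chromosome 15 the 3 genes of the run were correlated at 0.94 to 0.98, and on chromosome 11 at 0.49 to 0.98. On chromosome 18, Glyma18g00800 and Glyma18g00810 had r = 0.86, while Glyma18g00770 and Glyma18g00800 had r = -0.86. The strongest pair, Glyma19g40550 and Glyma19g40560, had r = -0.63, so a large shared rise did not always go with shared variation between plants.

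Plant 4 was the highest drought-stressed plant in 108 of the 144 members, in 462 of the 695 in-range probes without a rising neighbour and in 21221 of all 66195 probes. Member medians were 1.18, 1.24 and 1.59 in drought-stressed plants 1, 2 and 4, against -1.33, -1.27 and -1.33 in well-watered plants 14, 15 and 16. Both partners had the same highest drought-stressed plant in 61 of 83 pairs (73.5%). The share was 50.5% in the distant in-range pairs, 46.3% in the falling pairs and 33.9% in all neighbouring pairs. Plant 4 was highest more often among members than among the other in-range probes. That alone makes agreement likelier in member pairs, and its part in the 73.5% was not worked out. Without plant 4, 130 probes were members, 111 of them the same as with all plants, and the median likeness was 0.42 against 0.032 for the distant pairs.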

How the data were processed

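Soybean leaf RNA was hybridised to Affymetrix soybean arrays, 1 per plant, for 3 drought-stressed and 3 well-watered V6 plants, grouped by the sample labels. Before the log2 values were deposited, the authors used RMA in Affymetrix Expression Console, with its normalization left out, to give 1 signal per gene, took log2 and shifted every array to its 75th percentile in GeneSpring. For every probe the deposited log2 values had been centred to a median of 0, so depth and signal over background are unknown and the number of arrays limits the precision. The authors' own comparison (fold change, p-value and corrected p-value) was not used. Its file gave only the gene ID of each probe.

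The values were used as they stand, with 66195 probes and no filter. Groups were compared by lmFit and eBayes in limma 3.58.1 (R 4.3.3), with Benjamini-Hochberg adjustment over all probes (4 residual and 5.93 prior degrees of freedom). The fit was tested on simulated data. Of the probes, 428 on scaffolds could not be members, and 65767 lay on chromosomes. Pair counts were compared with the same counts at larger ID differences.

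Genes were named if they stood in runs of 3 or more, in the 6 pairs with the highest mean or the 4 pairs with the widest gap outside them, in pairs with a listed name or match, or next to a limit. A planned choice by protein identity was not made, since no protein was matched. The members, the limits and these lists were chosen with earlier results of these data known. Alternatives changed the array scale, the limits, the ID window, the test and the plants included. R2 leaves were not analysed here.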

Additional observations from a re-analysis of the deposited data

How the results depend on the processing

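With 3 plants per group, centred values and pots not told apart, small differences between members cannot be resolved, and ID numbers give order but no distance in bases. Under the settings other than those given here, the counts of members and pairs and the share of rising pairs stayed within 1.5 times their values. A lower limit of 1.5 gave 362 members in 214 pairs (0.115% of probe pairs), and one of 2.5 gave 65 members in 34 pairs (0.0183%). An ID difference of exactly 10 gave 88 members in 46 pairs (0.0734%). The methods' t-test called 1808 probes higher and 2000 lower over the array, against 2864 and 3401 in limma. With its adjusted p asked for in addition, 106 members in 61 pairs remained.

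Leaving out each plant in turn gave 130 to 155 members, 75 to 92 pairs and a share of 0.0404% to 0.0495%. It gave 2665 to 2937 probes higher and 3086 to 3501 lower, and a median likeness of 0.42 to 0.70. Of the 144 members, 100 were members in all of these 6 sets, 28 had a difference below the lower limit in at least 1 of them, and 6 had one that moved by more than 1.5-fold. None of 520 values of the 65 named genes changed direction, and 2 moved by more than the spread between plants. For members, leaving out 1 plant could not change the direction, since the rule kept all drought-stressed plants above all well-watered ones. The alternatives for likeness were chosen after the data were seen. No paired analysis was possible because the plant numbers differ between the groups. Other limits of protein identity were not run.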
